A study of Nothobranchius furzeri with 10 samples.

Results

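The genes described here were on in some skin samples of the turquoise killifish and silent in others. A gene entered when it had 2 or fewer reads in at least 2 of the 10 libraries and a CPM of 2 or more in at least 2 libraries, where CPM is the read count divided by the library's total count and multiplied by 1000000. The rule allowed for the 200 genes with the highest maximum CPM, but only 133 of the 26739 genes in the table (0.497%) qualified, so all 133 are members. The rule read the counts of all 10 libraries and no group label, and the on and silent calls below are therefore a description with no test. Nothobranchius furzeri, the turquoise killifish, is a short-lived freshwater fish, and all libraries held skin RNA of 27-week-old MZM-0410p males. Of the 10 libraries, 5 came from fish given 15 pM rotenone, an inhibitor of complex I of the mitochondrial respiratory chain, and 5 from fish given DMSO, its solvent. The labels give neither the route and length of treatment nor a batch, and they do not state that each library came from its own fish, so any p-value measures the spread between these libraries.

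Fish skin is a layered tissue. A living epidermis with mucous cells covers a dermis that holds scales, pigment cells, nerves and vessels, and muscle lies directly beneath. Bulk RNA of such a piece sums over all of its cells, so that fewer cells of a type and less RNA per cell cannot be told apart in these values. The identifiers in the table carry no gene names, and 0 of the 26739 matched the RefSeq gene table used here, so the members are given by identifier and the tissue could not be checked against marker genes. For the same reason no function is given for any of them.

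Total counts ran from 18801139 to 33406901 in the rotenone libraries and from 21415012 to 42253397 in the DMSO libraries, and 2 reads corresponded to 0.0473 to 0.106 CPM. The 4 libraries DMSO replicate 2 and rotenone replicates 3, 4 and 5 stood apart from the other 6, and most members owed their place to them: without these 4 libraries together, 7 genes met the rule. The main counts are given with and without them.

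Of the 26739 genes, 7696 had 2 or fewer reads in at least 2 libraries and 16248 reached 2 CPM in at least 2 libraries, and the 133 members were the overlap of these sets. Among the genes with at least 2 silent libraries, 7460 never reached 2 CPM and 103 reached it in 1 library only. The second-highest CPM of a gene was 2.01 for the member just inside the threshold and 1.98 for the gene just outside it. It lay between 2 and 2.5 CPM in 22 members, and 24 genes with 2 silent libraries lay just short of it, between 1.5 and 2 CPM. On the side of silence, 38 members had exactly 2 reads in their second-lowest library, and 39 other genes were kept out by having 3. The maximum CPM of a member ran from 2.11 to 1387 with a median of 11.7. It was 10 CPM or more in 79 members and 100 CPM or more in 4.

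The number of members on differed widely between libraries. In the rotenone libraries 6, 9, 93, 37 and 104 members were on in replicates 1 to 5, against 10, 109, 11, 7 and 11 in DMSO replicates 1 to 5. Silent calls numbered 104, 100, 10, 13 and 4 in the rotenone libraries and 74, 8, 82, 85 and 51 in the DMSO libraries. High libraries thus occurred in both groups, and the groups overlapped on both counts. Genes with at least 1 read numbered 20885 to 21551 in the rotenone libraries and 21198 to 21715 in the DMSO libraries. The members were chosen for differing between libraries, and detection asks for 1 read instead of 2 CPM. Their wider spread was therefore set beforehand. The members together took 45.7, 69.3, 948, 289 and 1945 CPM in rotenone replicates 1 to 5, against 104, 3466, 64.0, 104 and 73.5 CPM in DMSO replicates 1 to 5. On average 49.8 ± 46.2 members were on per rotenone library, against 29.6 ± 44.4 per DMSO library (SD, n = 5 per group), a difference of 20.2 that lies within the spread of either group. Without the 4 libraries that stood apart, the means were 7.5 for the 2 remaining rotenone libraries and 9.75 for the 4 remaining DMSO libraries, a difference of -2.25.

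**Figure D1:**
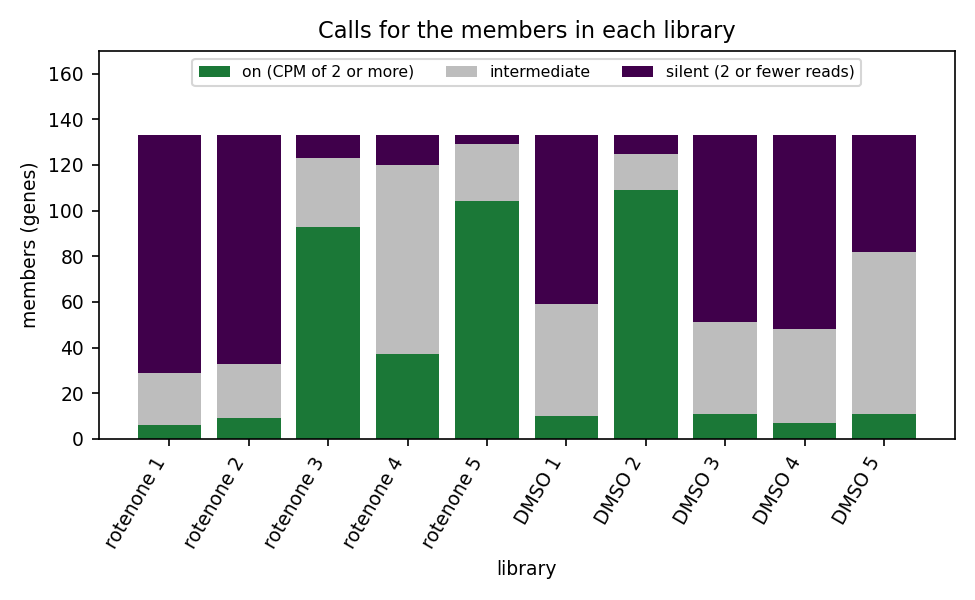
Stacked bars give, for each library on the horizontal axis, the number of the 133 members that were on (CPM of 2 or more), silent (2 or fewer reads) or in between. DMSO replicate 2 and rotenone replicates 3 and 5 had 93 to 109 members on, and rotenone replicate 4 stood between them and the rest with 37 on and 83 in between.

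On and silent were not always cleanly parted. Of the 1330 calls, 397 were on, 531 were silent and 402 lay between the thresholds, and 4 members had no call in between. The lowest on value exceeded the highest other value of the same gene by a median of 4.93-fold. This gap was at least 10-fold in 34 members, 27 of them in the large module described below and 7 outside it, and under 2-fold in 21.

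How many libraries of each group expressed a gene followed from the same few libraries. Of the 133 members, 49 were on in 2 libraries, 49 in 3, 29 in 4, 2 in 5, 2 in 6 and 2 in 7. A total of 122 members were on in at least 1 library of each group, 8 were on only in rotenone libraries and 3 only in DMSO libraries. The most frequent combinations were 2 rotenone libraries with 1 DMSO library (46 members), 1 with 1 (39 members) and 3 rotenone libraries with 1 DMSO library (26 members). More rotenone than DMSO libraries were on for 82 members, fewer for 10 and an equal number for 41. These counts are not independent of each other, since 3 of the 4 libraries that stood apart were labelled rotenone. Leaving out those 4 libraries kept 2 rotenone and 4 DMSO libraries. Among these, 9 members were on in both groups, 4 only in rotenone libraries, 12 only in DMSO libraries and 108 in none. With unequal numbers of libraries, the 4 and the 12 cannot be set directly against each other. No member was on in all 5 libraries of a group and in none of the other (0 in either direction), and the most libraries of 1 group that expressed a member was 4 in either group.

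**Figure D2:**
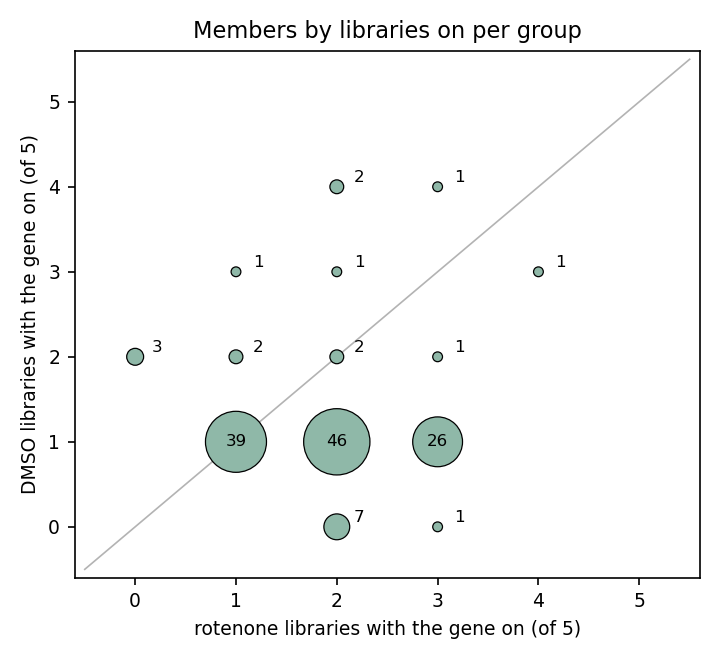
Each circle gives the number of members (its area and the number beside or in it) by how many of the 5 rotenone libraries (horizontal axis) and of the 5 DMSO libraries (vertical axis) had the gene on. Most members lie at 1 DMSO library and 1 to 3 rotenone libraries, and no circle lies at 5 libraries of either group.

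The members were grouped by their profiles (average linkage on the Pearson correlation of log2(CPM + 0.5) over the 10 libraries, with the tree taken at a height of 0.3). This placed 104 members (78.2%) in 1 large module. The other 29 fell into 2 modules of 3, 7 modules of 2 and 9 genes on their own. Correlations between pairs of genes in the large module had a median of 0.94 over the 10 libraries and ran from 0.38 to 0.9998. They are descriptions of genes that share libraries, and no test is attached to them. Over the 6 libraries without those that stood apart, the median was 0.20 among the 103 genes of the module with varying counts. Exact sets of libraries in which a gene was on describe the same values without a correlation, and are no separate support for the modules. There were 28 such sets, 19 of them with 1 member each. The set of rotenone replicates 3 and 5 with DMSO replicate 2 held 44 members, the same set with rotenone replicate 4 added held 25, rotenone replicate 5 with DMSO replicate 2 held 19, and rotenone replicate 3 with DMSO replicate 2 held 15. Rotenone replicate 5 and DMSO replicate 2 shared the most members on, 93, which were 89.4% of those on in the first and 85.3% in the second. Rotenone replicate 3 and DMSO replicate 2 shared 87 members on, 93.5% of those on in the first and 79.8% of those on in the second.

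**Figure D3:**
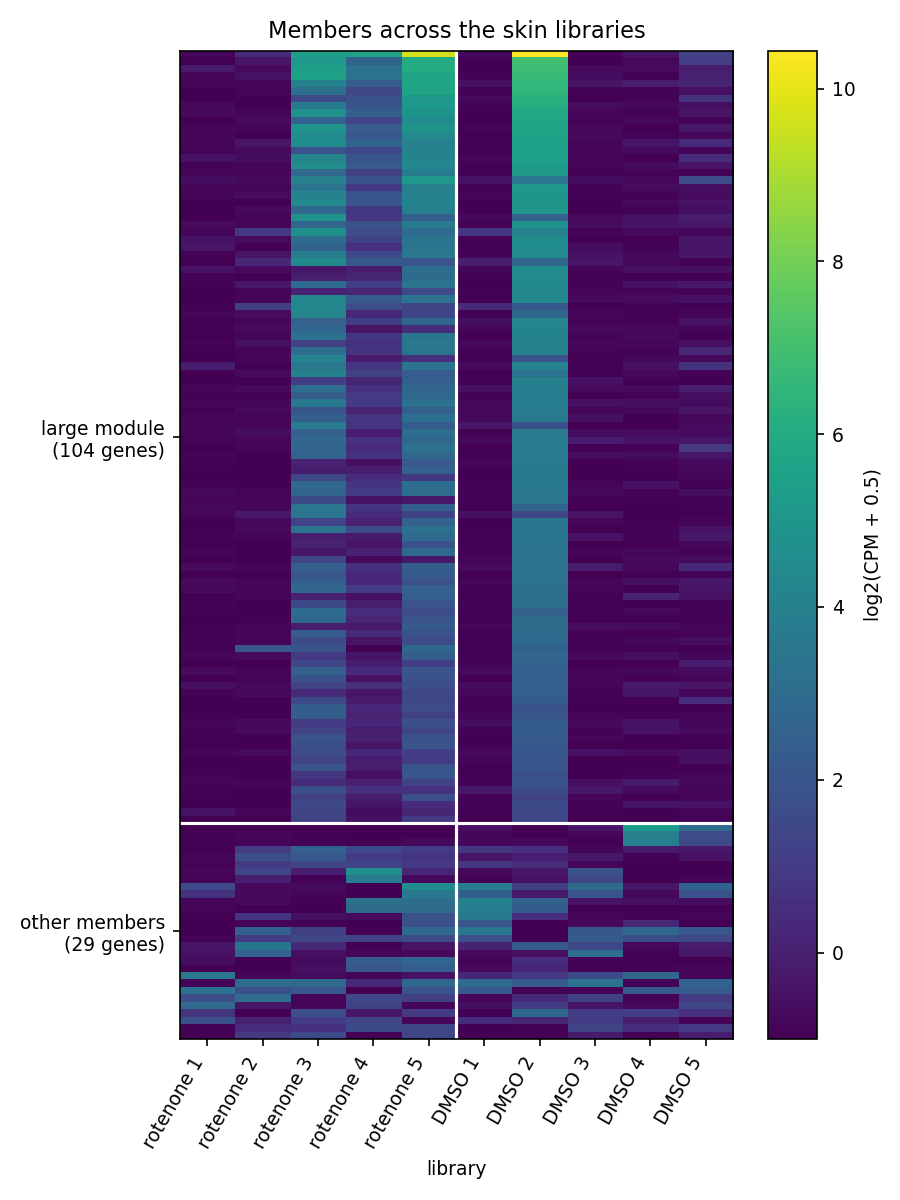
Rows are the 133 members and columns the 10 libraries, with colour giving the level as log2(CPM + 0.5). The upper block holds the 104 genes of the large module, bright in rotenone replicates 3 and 5 and DMSO replicate 2 and weaker in rotenone replicate 4, and the lower block the 29 other members, whose bright cells lie in varying libraries.

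All 104 genes of the large module were on in DMSO replicate 2. In the rotenone libraries 0, 1, 85, 26 and 90 of them were on in replicates 1 to 5, against 0, 104, 0, 0 and 1 in DMSO replicates 1 to 5. Median levels of the module were 0.0377, 0.0532, 5.25, 0.973 and 5.24 CPM in rotenone replicates 1 to 5 and 0.0473, 11.3, 0.0380, 0.0467 and 0.135 CPM in DMSO replicates 1 to 5. Expressed in reads, the median gene had 1, 1, 156.5, 30.5 and 175 reads in these rotenone libraries and 2, 287.5, 1, 1 and 4 reads in the DMSO libraries. For 102 of the 104 genes the lowest of the 3 high libraries (rotenone replicates 3 and 5 and DMSO replicate 2) lay above the highest of the 6 low ones. Rotenone replicate 4 lay above all 6 low libraries in 98 genes and below all 3 high ones in 95. Among the low libraries DMSO replicate 5 held the most: it detected 93 of the 104 genes with at least 1 read and had the highest value of the 6 in 50 of them. Only 2 genes of the module were on in any low library, and 22 were silent in all 6.

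The top 6 members by maximum CPM all belonged to the large module. Nfu_g_1_022789 reached the highest level of any member. It had 0.0754, 0.798, 41.8, 48.4 and 812 CPM in rotenone replicates 1 to 5, against 0.0947, 1387, 0.0380, 0.280 and 1.82 CPM in DMSO replicates 1 to 5. Its 35456 reads in DMSO replicate 2 stood against 1 to 54 reads in the other DMSO libraries. That gene alone made up 40.5% of the module's CPM in DMSO replicate 2, and the top 6 together made up 56.2%.

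Nfu_g_1_022174 had 0, 0.266, 33.4, 5.93 and 64.0 CPM in rotenone replicates 1 to 5, against 0, 129.7, 0, 0.0934 and 1.62 CPM in DMSO replicates 1 to 5. Nfu_g_1_019277 stood at 0.377, 0.106, 43.6, 9.54 and 67.8 CPM in the rotenone libraries, against 0, 119, 0.114, 0.140 and 0.404 CPM in the DMSO libraries. For Nfu_g_1_018837 the rotenone values were 0.0754, 0.213, 44.3, 9.09 and 50.8 CPM, against DMSO values of 0.0473, 102.5, 0.152, 0.0467 and 0.539 CPM. All 3 were high in the same 4 libraries, with rotenone replicate 4 the lowest of those 4.

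Nfu_g_1_015171 gave 0.0754, 0.0532, 15.9, 4.63 and 52.4 CPM in rotenone replicates 1 to 5, against 0.213, 95.5, 0.266, 0.420 and 0.640 CPM in DMSO replicates 1 to 5. Nfu_g_1_019072 gave 0, 0.0532, 8.79, 2.23 and 50.9 CPM in the rotenone libraries, against 0.0237, 94.3, 0.0380, 0.0467 and 0.202 CPM in the DMSO libraries. In both genes rotenone replicate 3 lay further below replicate 5 than in the preceding 3. The genes whose profile was closest to the rest of the module were Nfu_g_1_021468 and Nfu_g_1_001357, with mean correlations of 0.954 each. Nfu_g_1_021468 had no read in rotenone replicates 1 and 2 and 3.49, 0.702 and 4.28 CPM in replicates 3 to 5, against 9.31 CPM in DMSO replicate 2 and 0 to 0.0467 CPM in the other DMSO libraries. Nfu_g_1_001357 had 0.0754, 0.0532, 9.62, 1.44 and 15.2 CPM in rotenone replicates 1 to 5, against 33.3 CPM in DMSO replicate 2 and 0 to 0.202 CPM in the other DMSO libraries. Their groups overlapped, as did those of every other member named here.

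Within the large module the ratio between libraries was steadier for some pairs than for others. The level in rotenone replicate 5 divided by that in DMSO replicate 2 had a median of 0.504, with quartiles of 0.424 and 0.631, and 81 of the 104 genes lay within 1.5-fold of the median. For rotenone replicate 4 over DMSO replicate 2 the median was 0.0828, with 47 genes within 1.5-fold of it. For rotenone replicate 3 over DMSO replicate 2 the median was 0.460, close to that of replicate 5, but only 39 genes lay within 1.5-fold of it, and the ratios ran from 0.0145 to 5.28. Rotenone replicate 3 exceeded DMSO replicate 2 in 15 genes, rotenone replicate 5 exceeded it in 5 and rotenone replicate 4 in 0.

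**Figure D4:**
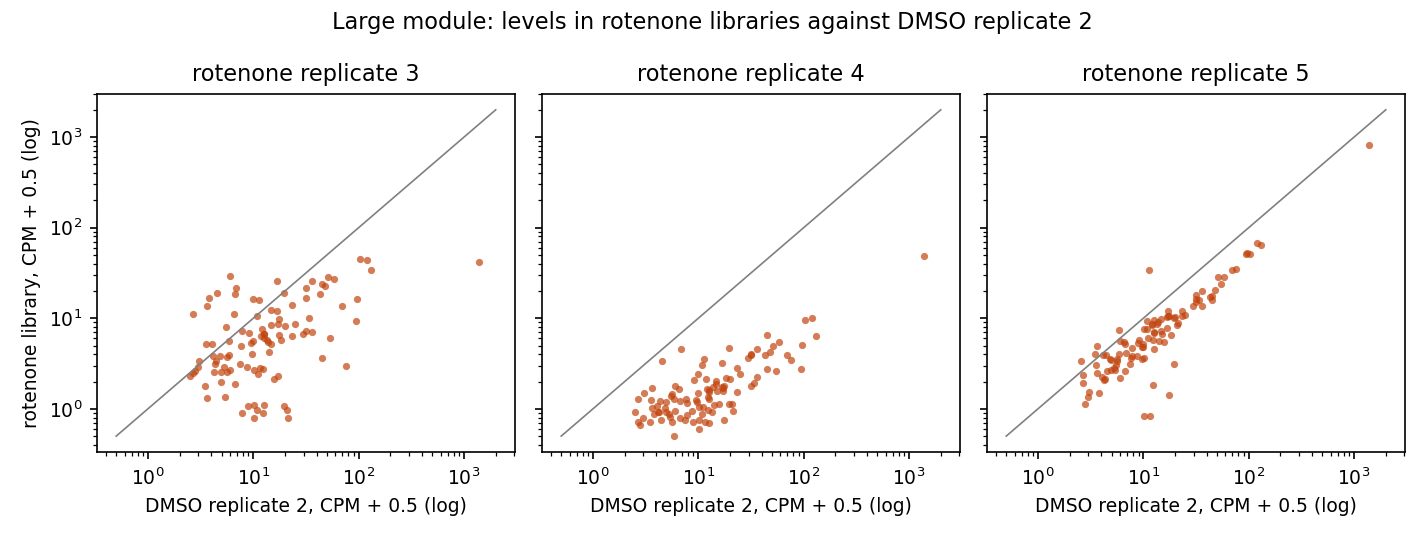
Each point is 1 of the 104 genes of the large module, with its level in DMSO replicate 2 on the horizontal axis and in a rotenone library on the vertical axis, both as CPM + 0.5 on log axes, and the line marks equal levels. Ratios to DMSO replicate 2, taken without the added 0.5, had medians of 0.504 for rotenone replicate 5, 0.0828 for replicate 4 and 0.460 for replicate 3. Within 1.5-fold of its median lay 81 genes for replicate 5, 47 for replicate 4 and 39 for replicate 3.

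Rotenone replicates 3 and 5 therefore did not express the module in the same proportions. Rotenone replicate 3 was the higher of these in 47 of the 104 genes, and the ratio of replicate 3 to replicate 5 ran from 0.0363 to 16.5. At the low end, Nfu_g_1_021585 had 0.302 CPM in rotenone replicate 3 and 8.32 CPM in replicate 5, against 20.8 CPM in DMSO replicate 2. At the high end, Nfu_g_1_013116 had 16.3 CPM in rotenone replicate 3 and 0.988 CPM in replicate 5, against 3.33 CPM in DMSO replicate 2. The 19 genes on in rotenone replicate 5 and DMSO replicate 2 but not in rotenone replicate 3 had medians of 0.604 CPM in replicate 3, 4.64 CPM in replicate 5 and 9.74 CPM in DMSO replicate 2. The 14 genes of the module on in rotenone replicate 3 and DMSO replicate 2 but not in rotenone replicate 5 had medians of 2.38, 1.18 and 3.64 CPM in those libraries. The extreme genes and the sets were picked by these values, so the differences describe them. Here and in what follows, identifiers outside the rule for named genes were chosen after their values were seen.

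A pair of genes in the large module departed from its libraries. Nfu_g_1_023479 was also on in rotenone replicate 2: it had 0.0377, 3.72, 3.39, 0 and 6.86 CPM in rotenone replicates 1 to 5, against 5.32 CPM in DMSO replicate 2 and 0 to 0.0467 CPM in the other DMSO libraries. Nfu_g_1_017468 was also on in DMSO replicate 5: its rotenone values were 0.151, 0.106, 15.53, 3.06 and 33.8 CPM, against 0.213, 10.8, 0.152, 0.0934 and 2.56 CPM in DMSO replicates 1 to 5. Its highest value was in rotenone replicate 5 and not in DMSO replicate 2, where 86 of the 104 genes of the module had theirs.

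Many genes that the rule left out followed the large module. Among the 16115 other genes with 2 CPM in at least 2 libraries, 319 (1.98%) had a correlation of 0.9 or more with the module's mean profile over the 10 libraries, and 7 had one of -0.9 or less. Of the module's own genes 87 reached 0.9. On the log2(CPM + 0.5) scale the mean of the 3 high libraries exceeded that of the 6 low libraries by a median of 3.54 in the module and 2.96 in the 319 genes, beside a median of -0.13 over all 16115. In 44 of the 319 genes 1 library was silent, and in 116 the second-lowest library held 3 to 10 reads. The nearest profile was that of Nfu_g_1_022178, with a correlation of 0.997. It had 0.113, 0.372, 16.2, 3.38 and 30.3 CPM in rotenone replicates 1 to 5, against 0.118, 82.9, 0.190, 0.0934 and 0.539 CPM in DMSO replicates 1 to 5. The rule therefore took only some of the genes with a profile of that shape. Correlation leaves out the level. None of the 319 could be silent in 2 or more libraries, since with 2 CPM in at least 2 libraries it would then be a member. The difference between high and low libraries was over 2 on the log2 scale in 226 of the 319.

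The 29 members outside the large module, left over by the clustering of these same values, were on in varying libraries. Of them, 6 were on only within DMSO replicate 2 and rotenone replicates 3, 4 and 5. In rotenone replicates 1 to 5 there were 6, 8, 8, 11 and 14 of them on, against 10, 5, 11, 7 and 10 in DMSO replicates 1 to 5. Together they reached 62.0 ± 27.2 CPM per rotenone library, against 65.9 ± 27.2 CPM per DMSO library (SD, n = 5 per group), a difference far smaller than the spread. The pair of libraries that shared the most of them was rotenone replicate 5 and DMSO replicate 1, with 10 on in both, whereas rotenone replicate 5 and DMSO replicate 2 shared 3.

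The first of the 2 modules of 3 genes was on only in DMSO replicates 4 and 5. Nfu_g_1_001501 had no read in rotenone replicates 1 to 3 and 1 read in each of replicates 4 and 5, against 0.213, 0, 0.304, 38.8 and 7.58 CPM in DMSO replicates 1 to 5. Nfu_g_1_005336 had 0, 0.0532, 0.0335, 0 and 0.0299 CPM in the rotenone libraries, against 0.0710, 0, 0.0761, 15.1 and 2.56 CPM in the DMSO libraries. Nfu_g_1_019605 had 0.0377, 0.0532, 0.0335, 0.0319 and 0.0898 CPM in the rotenone libraries, against 0.0947, 0.117, 0, 14.9 and 2.36 CPM in the DMSO libraries. In each of the 3, 4 of the 5 DMSO libraries lay above all 5 rotenone libraries, and the groups overlapped through 1 DMSO library with no read. Outside DMSO replicates 4 and 5 none of these genes had more than 9 reads in a library, so this order rested on few reads. Nfu_g_1_019605 had 4 and 3 reads in DMSO replicates 1 and 2, against 3 in rotenone replicate 5. DMSO replicate 4 was the highest and DMSO replicate 5 the next in all 3, and their correlations with each other were 0.985 to 0.997. In the second module of 3, Nfu_g_1_002978 had 0, 1.54, 5.33, 2.39 and 1.47 CPM in rotenone replicates 1 to 5, against 1.23, 1.02, 0.0761, 0.374 and 0.337 CPM in DMSO replicates 1 to 5. Nfu_g_1_012952 had 0.0377, 1.38, 2.11, 2.04 and 1.38 CPM in the rotenone libraries, against 1.21, 0.861, 0.0761, 0 and 0 CPM in the DMSO libraries. In both, rotenone replicates 3 and 4 lay between 2.04 and 5.33 CPM. Rotenone replicates 2 and 5 and DMSO replicates 1 and 2 lay under the threshold, between 0.861 and 1.54 CPM. The lowest values, 0 to 0.374 CPM, were in rotenone replicate 1 and DMSO replicates 3 to 5.

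Among the 7 modules of 2 genes, 1 held a gap of at least 10-fold between on and other values in both of its genes. Nfu_g_1_012123 had 0.0754, 0.106, 0.0335, 8.93 and 8.29 CPM in rotenone replicates 1 to 5, against 16.8, 5.71, 0.228, 0.187 and 0.135 CPM in DMSO replicates 1 to 5. Its partner Nfu_g_1_004044 had 0.0754, 0, 0, 7.21 and 7.15 CPM in the rotenone libraries, against 14.1, 4.69, 0, 0 and 0 CPM in the DMSO libraries. These genes were on in 2 libraries of each group and near 0 in the other 6, with a correlation of 0.997. Nfu_g_1_004238 had 0.0754, 2.13, 0.436, 24.8 and 0.659 CPM in the rotenone libraries, against 0.0947, 0.313, 3.31, 0 and 0 CPM in the DMSO libraries. Nfu_g_1_011736 followed it with 0.0377, 0.479, 0.0335, 12.6 and 0.120 CPM in the rotenone libraries, against 0.0237, 0.235, 2.21, 0 and 0.0674 CPM in the DMSO libraries. Rotenone replicate 4 was the highest and DMSO replicate 3 the next in both, with gaps of 3.23-fold for Nfu_g_1_004238 and 4.61-fold for Nfu_g_1_011736.

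Other members were on in most libraries and lost in a few. Nfu_g_1_016141 had 0.0754, 7.55, 7.11, 0.734 and 6.86 CPM in rotenone replicates 1 to 5, against 7.502, 4.34, 9.28, 0.0467 and 5.70 CPM in DMSO replicates 1 to 5. Nfu_g_1_018537 had 9.24, 2.98, 3.79, 0 and 3.29 CPM in the rotenone libraries, against 4.28, 0, 0.0380, 4.39 and 4.21 CPM in the DMSO libraries. Each was on in 7 libraries of both groups, with levels between 2.98 and 9.28 CPM where on, and of the 3 libraries in which each was not on they shared rotenone replicate 4. Nfu_g_1_010901 had no read in rotenone replicates 1 and 4 and 5.16, 1.74 and 7.33 CPM in replicates 2, 3 and 5, against no read in DMSO replicate 2 and 10.6, 3.96, 6.68 and 3.77 CPM in DMSO replicates 1, 3, 4 and 5.

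**Figure D5:**
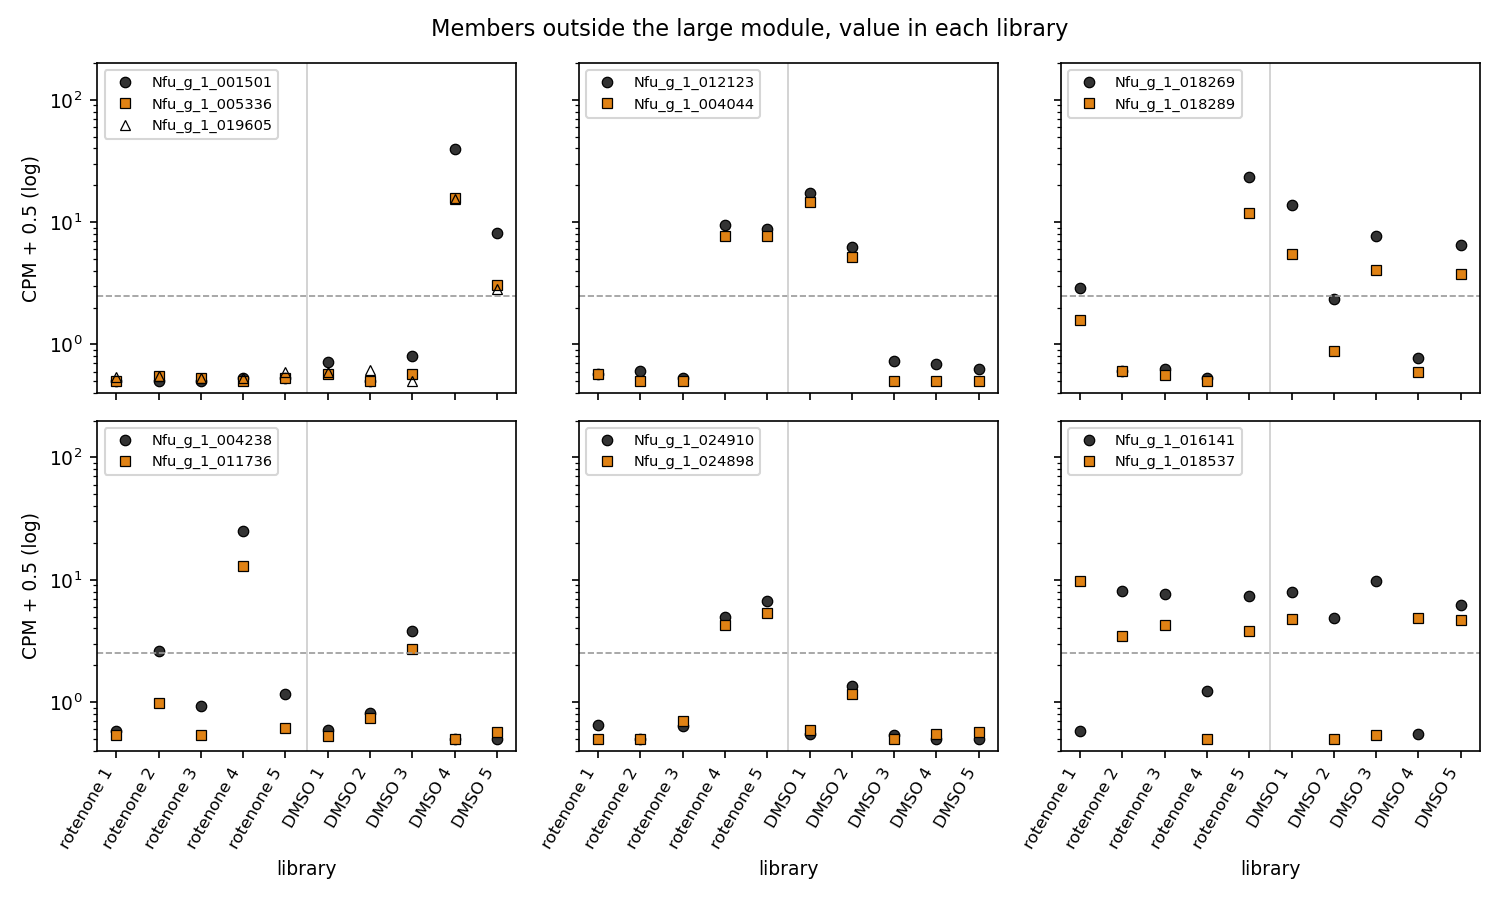
Levels of 13 members outside the large module are plotted as CPM + 0.5 on a log axis for each library, rotenone libraries left of the vertical line and DMSO libraries right of it, with the dashed line at the threshold of 2 CPM. Each of the first 5 panels holds the genes of 1 module, which the clustering grouped for their alike profiles. Nfu_g_1_004238 was on in rotenone replicate 2 and Nfu_g_1_018269 in rotenone replicate 1, where the other gene of the panel was not. The last panel shows Nfu_g_1_016141 and Nfu_g_1_018537, each on in 7 libraries and both under the threshold in rotenone replicate 4.

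Of the 133 members, 14 stood in blocks of nearby rows of the deposited table with members of their own module. The sources used here do not say what orders its rows, and the order is not that of the identifiers. Of all 8778 pairs of members, 12 lay within 3 rows of each other, and 11 of these were pairs within 1 module, beside 61.2% of all pairs. No pair had identifier numbers within 3 of each other (0 pairs). The 11 pairs came from 14 members in 6 blocks of rows, 4 of them in the large module. The longest block held Nfu_g_1_001302, Nfu_g_1_001289, Nfu_g_1_001306 and Nfu_g_1_001234 in 4 consecutive rows. In 2 blocks of the large module the 6 other rows beside or between the members had correlations of -0.30 to 0.49 with the module's mean. The row after the block of 4 consecutive rows, Nfu_g_1_001047, was no member but had a correlation of 0.986 with that mean: 0.113, 0.213, 26.3, 4.63 and 23.2 CPM in rotenone replicates 1 to 5, against 0.0237, 47.3, 0.152, 0.374 and 1.25 CPM in DMSO replicates 1 to 5.

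The blocks outside the large module were pairs. Nfu_g_1_018269 had 2.41, 0.106, 0.134, 0.0319 and 22.7 CPM in rotenone replicates 1 to 5, against 13.4, 1.84, 7.19, 0.280 and 6.03 CPM in DMSO replicates 1 to 5. Nfu_g_1_018289, 2 rows away, had 1.09, 0.106, 0.0671, 0 and 11.4 CPM in the rotenone libraries, against 5.02, 0.391, 3.58, 0.0934 and 3.24 CPM in the DMSO libraries. The gene in the row between them, Nfu_g_1_018171, was highest in the same libraries at 3.71 CPM in rotenone replicate 5, and against that it had 1.18 CPM in DMSO replicate 1 and 1.22 CPM in DMSO replicate 3. It reached 2 CPM only in that 1 library and so was no member. In neighbouring rows, Nfu_g_1_024910 had 0.151, 0, 0.134, 4.497 and 6.17 CPM in the rotenone libraries, against 0.0473, 0.861, 0.0380, 0 and 0 CPM in the DMSO libraries. Nfu_g_1_024898 had 0, 0, 0.201, 3.73 and 4.88 CPM in the rotenone libraries, against 0.0947, 0.665, 0, 0.0467 and 0.0674 CPM in the DMSO libraries. Genes in nearby rows may overlap or be near-identical copies that share reads, and how such reads were counted is not given in the sources used here.

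Gene length, which the rule did not use, was recovered from the deposited counts and RPKM values for all 133 members. Median length was 1717 bases in the members, with quartiles of 1014 and 2812 bases, beside 2832 bases over the 16248 genes with 2 CPM in at least 2 libraries. The median was 1654 bases in the large module and 2055 bases in the 29 others. Genes shorter than 1000 bases made up 24.8% of the members and 15.3% of the 16248. A shorter gene collects fewer reads at the same level, and the part of length in the calls was not tested. Per kilobase, the maximum level of a member had a median of 7.61 CPM per kilobase, beside 8.97 CPM per kilobase over the 16248 genes. The highest per length was Nfu_g_1_022174, with 175 CPM per kilobase over 741 bases, followed by Nfu_g_1_022789 with 96.8 CPM per kilobase over 14321 bases.

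Rotenone and DMSO skin were then compared gene by gene with edgeR's quasi-likelihood test over the 16248 genes, a table that holds every member. No member was called at a Benjamini-Hochberg adjusted p under 0.05 (0 of 133), and over all tested genes 0% were called. The smallest adjusted p of a member was 0.31. With p left unadjusted, 6 members fell under 0.05, 3 of them higher and 3 lower in rotenone skin, beside 7.5% of all tested genes. Each of the 6 was on in 2 libraries of 1 group and in 0 of the other. They met the rule and entered the test only through the group where they were high. The 3 lower ones formed 1 module and 2 of the higher ones another, so the 6 are not separate results. The 5 rotenone values lay wholly above or below the 5 DMSO values in 0 members, beside 2.15% of all tested genes. Of the fitted log2 fold changes 78 lay above 0 and 55 below it, with a median of 0.10, beside a median of 0.02 over all genes. Without the 4 libraries that stood apart, 15 members were tested, with 7 above 0 and 8 below it. With all 10 libraries, the log2 fold changes of the 133 members had a median size of 0.51, beside 0.16 over all genes. Their median standard error was 1.67, beside 0.20. This test therefore left wide intervals for the members.

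The members with the smallest p in each direction did not pass. Nfu_g_1_018753, with 0.0754, 2.82, 3.76, 1.47 and 1.17 CPM in rotenone replicates 1 to 5, against 0.284, 0.469, 0.342, 0.0467 and 0.236 CPM in DMSO replicates 1 to 5, had the smallest p of those higher in rotenone. It averaged 1.86 ± 1.44 CPM over the rotenone libraries, against 0.276 ± 0.155 CPM over the DMSO libraries (SD, n = 5 per group), a log2 fold change of 2.83 ± 0.81 (SE) with an edgeR adjusted p of 0.38, and 4 of the 5 rotenone libraries lay above all 5 DMSO libraries. Nfu_g_1_024910, given above, came next, with 2.19 ± 2.93 CPM over the rotenone libraries, against 0.189 ± 0.376 CPM over the DMSO libraries (SD, n = 5 per group), and an edgeR adjusted p of 0.65. Nfu_g_1_001501 and Nfu_g_1_005336, also given above, had the smallest p of those lower in rotenone, with edgeR adjusted p of 0.31 and 0.38. No fold is given for them, since the rotenone libraries held 0 or 1 read each. Both rested on DMSO replicates 4 and 5.

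Other tests moved these calls. DESeq2 on the same genes called 4 members at an adjusted p under 0.05, beside 1.45% of all genes, and gave 25 members no adjusted p. Of the 4, 3 were lower in rotenone skin, among them Nfu_g_1_001501 (DESeq2 adjusted p = 0.0033) and Nfu_g_1_005336 (DESeq2 adjusted p = 0.021), and 1 was higher, Nfu_g_1_018753 (DESeq2 adjusted p = 0.030). The 3 lower ones were on in DMSO replicates 4 and 5 only, so that without either of these libraries they no longer reached 2 CPM in 2 libraries and were not tested. Nfu_g_1_018753 was on in rotenone replicates 2 and 3 only, and without either of them it was not tested. Each of the 4 thus reached 2 CPM in 2 libraries only through the group where it was high. Their calls are no support independent of the rule. Of the libraries left out in turn, DMSO replicate 2 moved the counts furthest. Without it DESeq2 called 61 of the 99 members still tested, 58 higher and 3 lower in rotenone skin, beside 3.71% of all genes, and edgeR called 0 but gave 75 members an unadjusted p under 0.05, beside 10.4% of all genes. The fitted log2 fold change of Nfu_g_1_022789 was -0.51 ± 2.55 (SE) with all 10 libraries and 8.58 without DMSO replicate 2. All 104 genes of the large module were on in DMSO replicate 2, against 0, 0, 0 and 1 in DMSO replicates 1, 3, 4 and 5. The rule chose them through these values, so leaving out DMSO replicate 2 largely set their direction beforehand. They also share 1 profile, so their calls do not count as separate results. The cause of the high values in DMSO replicate 2 was not tested.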

How the data were processed

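The authors deposited raw read counts per gene and RPKM values for 10 skin libraries. Upstream tools were bcl2fastq (1.8.4), then STAR (2.4.1d) and featureCounts (1.4.6-p4), per the submitters' processing notes. Genome build, annotation and strand setting of the counting: not given in the sources used here. Libraries were made with a TruSeq RNA kit (v2), per the labels' protocols.

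The deposited counts were used for every result. The deposited RPKM values served only for gene lengths. With each library's own total, the length implied by both tables had a median CV of 31.4% over 4793 genes. With the totals running in a cycle through the table's cells it was 0.0019%, and this cycle was used.

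The members, the gene lists and the tests were chosen with earlier results of these data known. Replicate numbers were given in accession order and pair nothing. Genes with 2 CPM in at least 2 libraries entered edgeR 4.0.16 in R 4.3.3 (TMM scaling, glmQLFit with robust=TRUE and a two-sided glmQLFTest), rotenone against DMSO, with no covariate and a Benjamini-Hochberg threshold of 0.05. The script was tested on simulated data. The standard error is the size of the log2 fold change divided by the square root of F. Alternatives used DESeq2 1.42.0, limma 3.58.1, other scalings, filters and thresholds, and left out libraries. Named genes are the 6 with the highest maximum CPM, the 2 with the highest mean correlation in each of the 4 largest modules, and the 2 with the smallest p in each direction. Genes on in all of 1 group only, and those around rank 200, were also to be named, and there were none. The fourth module was taken from 7 tied ones by its maximum CPM. No batch is labelled, and values of a few reads are limited by counting error.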

Additional observations from a re-analysis of the deposited data

Results flagged for a closer look

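In 50 sets of 5 values, 22 had a library at a distance from its group. About 1 in 20 would for independent, normally distributed values. These sets overlap, as many hold genes of the large module, and the genes were chosen for values that differ between libraries. The rate of 1 in 20 therefore does not apply here. DMSO replicate 2 accounted for 13. It had 109 members on, against 7 to 11 in the other DMSO libraries, and 104 genes of the large module on, against 0 or 1. Its members summed to 3466 CPM and the large module to 3428 CPM.

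DMSO replicate 2 was likewise the highest of its group for Nfu_g_1_022789 (1387 CPM), Nfu_g_1_022174 (129.7 CPM), Nfu_g_1_019277 (119 CPM), Nfu_g_1_018837 (102.5 CPM), Nfu_g_1_015171 (95.5 CPM), Nfu_g_1_019072 (94.3 CPM), Nfu_g_1_021468 (9.31 CPM), Nfu_g_1_001357 (33.3 CPM) and Nfu_g_1_024910 (0.861 CPM). Rotenone replicate 5 was far above its group for Nfu_g_1_022789 (812 CPM) and Nfu_g_1_019072 (50.9 CPM).

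Rotenone replicate 4 was singled out for Nfu_g_1_004238 (24.8 CPM) and Nfu_g_1_011736 (12.6 CPM), and DMSO replicate 3 for these genes too (3.31 and 2.21 CPM). DMSO replicate 4 was singled out for Nfu_g_1_001501 (38.8 CPM), Nfu_g_1_005336 (15.1 CPM) and Nfu_g_1_019605 (14.9 CPM).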

How the results depend on the processing

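The number of genes that met the rule was 57 with silence at 0 reads, 226 at 5 or fewer reads, 208 with on at 1 CPM, 72 with on at 5 CPM, and 7 without DMSO replicate 2 and rotenone replicates 3, 4 and 5, an alternative chosen after seeing the data. All 133 members were among the 226 and the 208, which had to be so because both settings only loosen the rule. The difference in members on per library was 20.2 and lay between 6.65 and 40.1 when 1 library was dropped. Without the 4 libraries it was -2.25. Every alternative stayed within 1 SD of 20.2, but that SD was 46.2, and so wide a limit says little about stability. edgeR called 0 members with every scaling, filter, threshold and left-out library tried, and limma voom called 0. Not all of these fits tested all 133 members: edgeR's filter filterByExpr kept only 42. With 1 library left out, 99 to 131 members were tested, and without the 4 libraries 15. Over all 16248 genes edgeR called 21 when scaled by library size alone and 15 at an adjusted p under 0.1. In its other settings edgeR called 0 of all tested genes, and limma voom called 0. DESeq2 called 4 members, beside 1.45% of all genes. With a library left out in turn, added after seeing the data, DESeq2 called 5, 3, 2, 2 and 4 members without rotenone replicates 1 to 5. Without DMSO replicates 1 to 5 it called 3, 61, 3, 0 and 0. Its count with a library left out thus ran from 0 to 61, beside 0.84% to 3.71% of all tested genes. The count of 61 carries the limit given above for leaving out DMSO replicate 2. Without the 4 libraries DESeq2 called 1 of the 15 members tested, beside 1.23% of all genes. Groups that do not overlap numbered 0 to 5 members with a library left out, beside 2.38% to 6.78% of all genes, and 19 (14.3%) without the 4 libraries, beside 14.9% of all genes. The members in modules of 5 or more numbered 102 to 108 in every alternative. Without the 4 libraries they formed 11 modules, the largest of 39.

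Scaled by library size alone, all tested genes had a median log2 fold change of -0.11, against 0.02 with TMM. With that scaling edgeR called 0 members, beside 21 of all 16248 genes, all 21 of them lower in rotenone skin. Fitted log2 fold changes of the large module's genes changed sign with single libraries. With a library left out they ran from -3.54 to 8.58 for Nfu_g_1_022789, -1.45 to 5.78 for Nfu_g_1_022174, -0.86 to 7.42 for Nfu_g_1_019277, -0.65 to 6.88 for Nfu_g_1_018837, -1.92 to 5.47 for Nfu_g_1_015171, -2.78 to 7.49 for Nfu_g_1_019072, -0.84 to 6.48 for Nfu_g_1_021468 and -1.30 to 6.03 for Nfu_g_1_001357, with the highest value without DMSO replicate 2. With limma voom the sign turned for Nfu_g_1_022789 (3.87), Nfu_g_1_022174 (3.96), Nfu_g_1_015171 (1.95), Nfu_g_1_019072 (2.997), Nfu_g_1_021468 (2.66) and Nfu_g_1_001357 (3.50), and the cause was not tested. The other 9 named genes kept their sign in each alternative that tested them. Of these, 8 dropped out of the test under some left-out libraries that held their high values, such as DMSO replicates 4 and 5 for Nfu_g_1_001501, so their sign was not tried there. No paired analysis was possible because the labels pair no libraries.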
